A study of Drosophila melanogaster with 3 samples.

Results

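The genes described here are 10 regulators of spermatocyte transcription in *Drosophila melanogaster*, taken as named genes and not by their levels. They were chosen, however, with earlier results of these data known. They are the testis-specific TAFs *can*, *sa*, *mia*, *nht* and *rye*, and the testis meiotic arrest complex (tMAC) group *aly*, *comr*, *topi*, *tomb* and *achi*. All 10 were found among the 15185 entries of the deposited expression table, 9 under their own symbol and *rye* under its synonym *Taf12L*. Levels came from RNA-seq of whole male 3rd instar larvae of 3 genotypes, with 1 library for each. *mxcmbn1* is a recessive lethal allele of *multi sex combs* (*mxc*) with lymph gland tumours, taken from a stock that carried *w1* after a duplication of *mxc*+ had been removed. *mxcG43* is a hypomorphic allele that showed no tumour, from a stock centre. The wild type was Canton S, so the 3 genotypes were not described as sharing a genetic background. The study described the sequenced wild-type larvae as mature and the *mxcmbn1* larvae as being of the same stage. Its account of the sequencing results did not mention *mxcG43*, whose larval stage and sex it did not give separately. According to its methods, some *mxcmbn1* larvae stayed in that instar longer than controls, and the age of the larvae sequenced was not given.

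In the testis, spermatocytes switch on a large programme of genes before the meiotic divisions, and much of the RNA made then is used only later, by spermatids. The testis TAFs are spermatocyte versions of subunits of the general transcription factor TFIID, and tMAC is a spermatocyte relative of the dREAM and Myb-MuvB complexes. Males lacking these genes arrest as mature primary spermatocytes, which gave the class its name. In 3rd instar larvae primary spermatocytes are the most advanced germ cells of the male gonad. Because RNA came from whole larvae, fewer spermatocytes and less RNA per spermatocyte cannot be told apart.

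Levels are given in FPKM, which scales the fragments of a gene to its exon length and to the size of the library, so they can be set side by side between genes. The table holds no counts. The FPKM values of low entries fell on steps of whole reads, from which the libraries' relative depth was read as 1.36 for *mxcmbn1* and 0.970 for *mxcG43*, relative to wild type. Annotated mRNA lengths then gave about 15300000, 10900000 and 11300000 mapped reads in *mxcmbn1*, *mxcG43* and wild type. Whole reads were recovered in this way for 9 of the 10 genes. Intervals below are exact 95% intervals from those reads. They cover counting error only, and no difference has a replicate check or a test.

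In *mxcmbn1*, 8 of the 10 genes stood at or below 0.5 times their wild-type level, and 5 of them, *can*, *sa*, *nht*, *aly* and *comr*, at or below 0.1 times. Of the 11982 entries that reached 1 FPKM in the higher of these libraries, 25.8% were at or below 0.5 times and 15.3% at or below 0.1 times. The exceptions were *mia*, which was not lower, and *tomb*, at 0.604 times. The median ratio of the 10 genes was 0.120, against 0.961 over all those entries. The summed FPKM of the 10 genes was 17.3 in *mxcmbn1*, 61.4 in *mxcG43* and 83.1 in wild type. *mia* and *achi* supplied 59.3% of this sum in *mxcmbn1*, 18.2% in *mxcG43* and 19.8% in wild type.

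**Figure D1:**
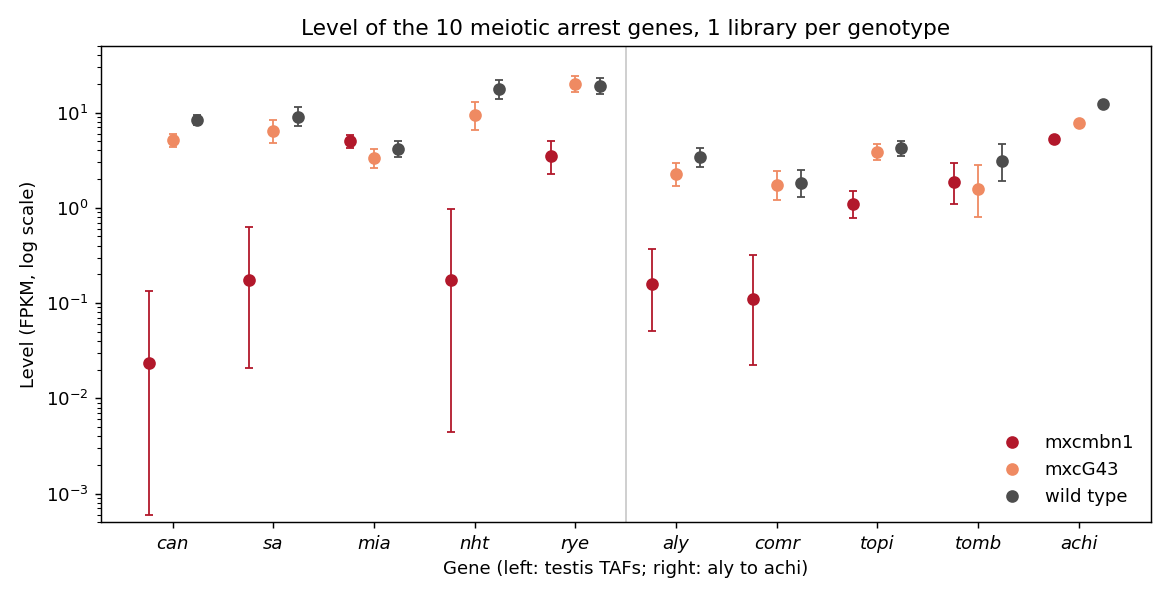
Level of each of the 10 genes in FPKM (log axis) in the *mxcmbn1*, *mxcG43* and wild-type libraries, 1 point per library. Bars are 95% counting intervals from recovered reads, and *achi* has none. For *can*, *sa*, *nht*, *aly* and *comr* the *mxcmbn1* points lie below 0.2 FPKM and the other points above 1 FPKM, while the 3 *mia* points lie between 3.31 and 5.01 FPKM.

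*can*, which encodes the testis counterpart of TAF5, lies on 3L from 10257009 to 10260211 (entry XLOC_008148, BDGP5, as for all positions given here). Its level was 0.0237 FPKM in *mxcmbn1*, 5.14 FPKM in *mxcG43* and 8.36 FPKM in wild type, from 1, 155 and 260 reads in that order. It was the lowest ratio of the 10 genes, 0.00284 of wild type in *mxcmbn1* (interval 7.16e-05 to 0.0159), and it rests on a single read. Of 11417 entries with at least 1 FPKM in wild type, 482 (4.22%) had a lower ratio than *can*. In *mxcG43* the ratio of *can* was 0.615 (0.501 to 0.753), an interval that excluded both 0.5 and 1.

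*nht*, the testis counterpart of TAF4, lies on 2L from 15317954 to 15318901 (XLOC_002475). It had 0.175 FPKM in *mxcmbn1*, 9.32 FPKM in *mxcG43* and 17.6 FPKM in wild type. The smallest whole numbers of reads behind these levels were 1, 38 and 74, and the annotated mRNA length fitted a doubling to 2, 76 and 148. The ratio in *mxcmbn1* was 0.00997, with an interval of 0.000249 to 0.0573 on the smaller reads and of 0.00120 to 0.0367 on the larger. In *mxcG43* the ratio was 0.530, the lowest of the testis TAFs in that allele, with an interval of 0.348 to 0.793 on the smaller reads and 0.396 to 0.703 on the larger. In both readings the intervals lay below 1.

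*sa*, which encodes the TAF8 counterpart, is assigned a stretch of 3L from 21375601 to 21426234 that 3 other entries share (XLOC_008858). Its level was 0.174 FPKM in *mxcmbn1*, 6.43 FPKM in *mxcG43* and 9.06 FPKM in wild type, from 2, 53 and 77 reads. The *mxcmbn1* ratio was 0.0192 (0.00228 to 0.0716) and the *mxcG43* ratio 0.710 (0.491 to 1.02). The interval of *sa* in *mxcmbn1* overlapped those of *can* and *nht*, so the order of these 3 genes is not set by the reads.

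*rye*, the TAF12 counterpart, is assigned 2L from 4694721 to 4722465 together with 1 other entry (XLOC_001776), and lies within a gene of the opposite strand without sharing exonic bases. It had 3.46 FPKM in *mxcmbn1*, 19.9 FPKM in *mxcG43* and 19.1 FPKM in wild type, from 26, 107 and 106 reads. It was lower in *mxcmbn1*, at 0.181 of wild type (0.113 to 0.280), an interval above those of *can*, *sa* and *nht*. Between *mxcG43* and wild type its counts were nearly equal, with a ratio of 1.04 (0.788 to 1.37).

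*mia*, which encodes the TAF6 counterpart, was the only testis TAF gene whose level was not lower in *mxcmbn1* than in wild type. It lies on 3R from 1374048 to 1376889 (XLOC_010832) and shares no exonic bases with another annotated gene. Its level was 5.01 FPKM in *mxcmbn1*, 3.31 FPKM in *mxcG43* and 4.19 FPKM in wild type, from 167, 79 and 103 reads. The ratio to wild type was 1.20 in *mxcmbn1* (0.930 to 1.54) and 0.791 in *mxcG43* (0.582 to 1.07), and both intervals included 1. Set against *mxcG43* alone, *mxcmbn1* was higher by 1.51 times (1.15 to 2.0). Within the *mxcmbn1* library the summed FPKM of the 5 testis TAFs was 8.85, most of it from *mia*, against 44.1 in *mxcG43* and 58.3 in wild type.

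Of the tMAC group, *aly* encodes a relative of the *Caenorhabditis elegans* protein LIN-9. It lies on 3L from 3024129 to 3026521 (XLOC_007681). It had 0.158 FPKM in *mxcmbn1*, 2.25 FPKM in *mxcG43* and 3.39 FPKM in wild type, from 5, 51 and 79 reads. The ratio was 0.0467 in *mxcmbn1* (0.0148 to 0.114) and 0.666 in *mxcG43* (0.459 to 0.959). The *mxcG43* interval lay below 1, as it did for *can* and *nht* and for no other gene of the 9 with reads.

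*comr* encodes a nuclear protein that depends on *aly* for its place in the nucleus, and lies on 2R from 17752372 to 17754364 (XLOC_005732). Its levels were 0.109 FPKM in *mxcmbn1*, 1.73 FPKM in *mxcG43* and 1.83 FPKM in wild type, from 3, 34 and 37 reads. It was the least abundant of the 10 genes in wild type. Its ratio was 0.0598 in *mxcmbn1* (0.0118 to 0.189) and 0.948 in *mxcG43* (0.577 to 1.55).

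*topi*, a zinc finger protein gene, lies on 3R from 5600843 to 5603665 (XLOC_009335). It had 1.09 FPKM in *mxcmbn1*, 3.87 FPKM in *mxcG43* and 4.23 FPKM in wild type, from 41, 104 and 117 reads. Its ratio of 0.258 in *mxcmbn1* (0.177 to 0.372) was less far from 1 than that of *aly*, and the intervals of the pair did not overlap. In *mxcG43* the ratio of *topi* was 0.917 (0.697 to 1.20).

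*tomb* encodes a protein with a cysteine-rich DNA-binding domain, and is assigned 2L from 5525905 to 5539196 together with 5 other entries (XLOC_001833). Its level was 1.86 FPKM in *mxcmbn1*, 1.59 FPKM in *mxcG43* and 3.08 FPKM in wild type, from only 18, 11 and 22 reads. The ratio was 0.604 in *mxcmbn1* (0.305 to 1.18) and 0.516 in *mxcG43* (0.226 to 1.11), so neither difference from wild type was outside counting error. In the BDGP6 annotation 98 of its 836 exonic bases (11.7%) overlap *Cap-D3* on the opposite strand. The libraries kept the strand, but whether it was used in counting was not stated, so reads from these bases are of uncertain origin.

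*achi*, a homeodomain gene of the TGIF type, lies on 2R from 8399035 to 8402556 (XLOC_004952) beside its near-identical copy *vis*, and the division of reads between the copies is uncertain. *achi* had 5.26 FPKM in *mxcmbn1*, 7.86 FPKM in *mxcG43* and 12.3 FPKM in wild type, ratios of 0.429 and 0.641 to wild type. *vis* had 1.29 FPKM in *mxcmbn1*, 6.57 FPKM in *mxcG43* and 8.88 FPKM in wild type, ratios of 0.145 and 0.740. Both copies were lower in each allele than in wild type, and in *mxcmbn1* the gap was wider for *vis*. No whole reads could be recovered for either copy.

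**Figure D2:**
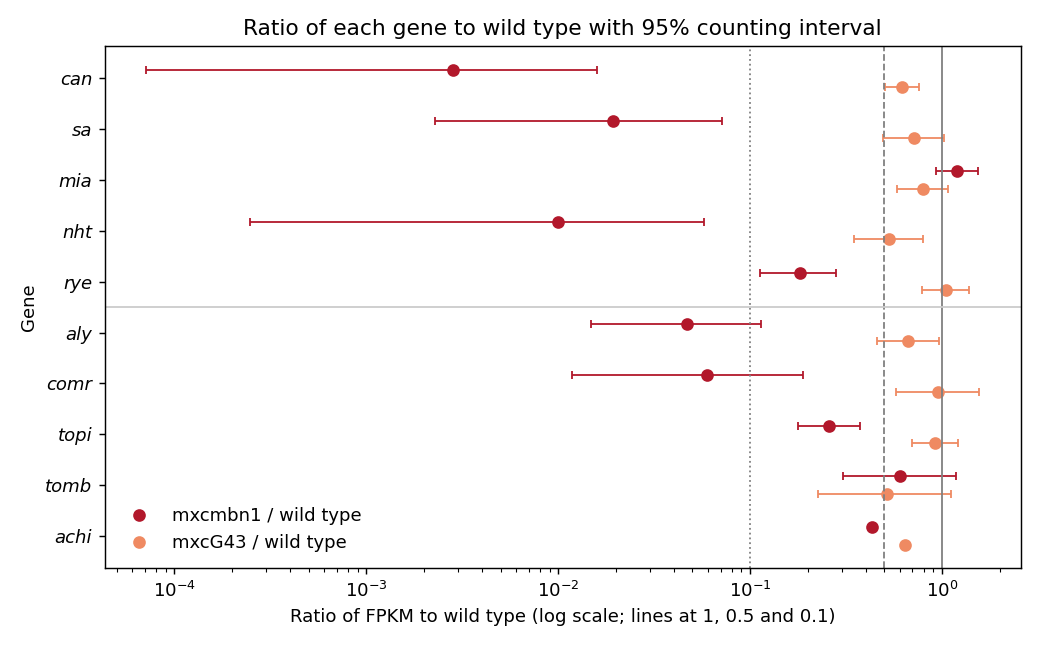
Ratio of each gene's FPKM to wild type in *mxcmbn1* and in *mxcG43* (log axis), with 95% counting intervals where reads were recovered and lines at 1, 0.5 and 0.1. In *mxcmbn1* the ratios run between 0.00284 for *can* and 1.20 for *mia*, and in *mxcG43* between 0.516 for *tomb* and 1.04 for *rye*.

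The order of levels differed between the libraries. In wild type, *rye* (19.1 FPKM, 15.7 to 23.1) and *nht* (17.6 FPKM, 13.8 to 22.1) were highest and not separable, followed by *achi*. *sa* (9.06 FPKM, 7.15 to 11.3) and *can* (8.36 FPKM, 7.38 to 9.45) overlapped each other and lay above *topi*, *mia*, *aly* and *tomb*, whose intervals all overlapped. The highest wild-type level was 10.5 times the lowest. In *mxcG43* it was 12.5 times, with *rye* highest and *tomb* lowest. In *mxcmbn1* the highest level was 222 times the lowest, with *achi* and *mia* on top, then *rye*, *tomb* and *topi*, and with *nht*, *sa*, *aly*, *comr* and *can* below 0.2 FPKM and overlapping in their intervals.

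In *mxcG43* none of the 10 genes was at or below 0.5 times wild type, where 6.80% of 11876 entries were. Levels were below wild type for 9 of 10 genes, *rye* excepted, against 54.4% of entries. The ratios ran between 0.516 and 1.04, with a median of 0.688, against 0.966 over all entries. The intervals of 6 of the 9 genes with reads included 1, so most of these small differences were within counting error.

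The direct comparison of the alleles reuses the *mxcmbn1* and *mxcG43* libraries, so it is not independent of their ratios to wild type. In *mxcmbn1* 7 of 10 genes were at or below 0.5 times *mxcG43* and 5 at or below 0.1 times, against 26.0% and 15.2% of 12005 entries. The median ratio was 0.122. *can* was at 0.00461 (0.000116 to 0.0261), *sa* at 0.0270 (0.00319 to 0.102) and *aly* at 0.0701 (0.0218 to 0.175). *rye* was at 0.174 (0.109 to 0.269) and *topi* at 0.282 (0.191 to 0.408), close to their ratios to wild type. *tomb* was at 1.17 (0.523 to 2.74) and *achi* at 0.669, so that *tomb*, *achi* and *mia* were the 3 genes not at or below 0.5 times.

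Each testis TAF has a generally expressed counterpart in TFIID, and these counterparts were read in the same way. None of the 5, *Taf4*, *Taf5*, *Taf6*, *Taf8* and *Taf12*, was at or below 0.5 times or at or above 2 times wild type in either allele. Their median log2 ratio of FPKM plus 0.1 was 0.43 in *mxcmbn1* and 0.32 in *mxcG43*. Over all entries in *mxcmbn1*, 25.8% were at or below 0.5 times wild type and 15.5% at or above 2 times. In *mxcG43* 808 of 11876 entries (6.80%) were at or below 0.5 times and 763 at or above 2 times. A count of none among 5 in that allele is thus no result about the list. *Taf5* had 8.96 FPKM in *mxcmbn1*, 6.94 FPKM in *mxcG43* and 5.54 FPKM in wild type, a ratio of 1.62 (1.32 to 2.0) in *mxcmbn1*. *Taf8* went the other way, with 6.73 FPKM in *mxcmbn1*, 7.88 FPKM in *mxcG43* and 11.2 FPKM in wild type, a ratio of 0.599 (0.466 to 0.770) in *mxcmbn1*.

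Within a library, the ratio of testis gene to counterpart takes out the library's scale. For *can* over *Taf5* it was 0.00265 in *mxcmbn1*, 0.741 in *mxcG43* and 1.51 in wild type. For *nht* over *Taf4* it was 0.00955, 0.746 and 1.30 in the same order, and for *rye* over *Taf12* 0.190, 1.07 and 1.41. *sa* over *Taf8* was 0.0258 in *mxcmbn1* and nearly equal in *mxcG43* and wild type, at 0.816 and 0.807. *mia* over *Taf6* was 0.535 in *mxcmbn1*, 0.268 in *mxcG43* and 0.438 in wild type. The general form thus had the higher FPKM in all 5 pairs in *mxcmbn1*, in 4 pairs in *mxcG43*, *rye* excepted, and only in the *sa* and *mia* pairs in wild type.

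**Figure D3:**
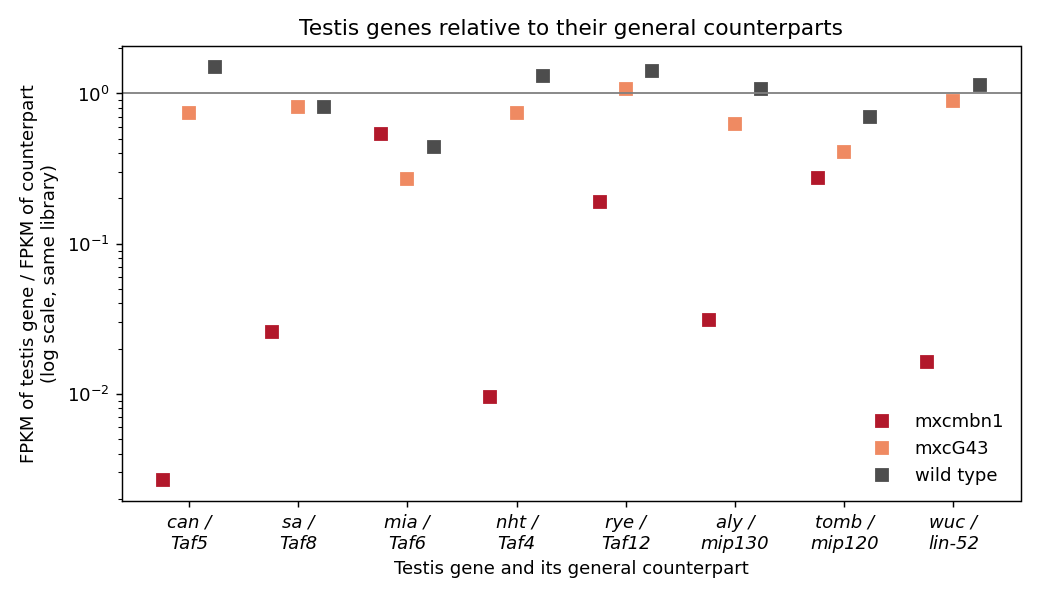
FPKM of a testis gene divided by FPKM of its general counterpart in the same library (log axis), for 8 pairs and the *mxcmbn1*, *mxcG43* and wild-type libraries. The *mxcmbn1* points are lowest in 7 pairs, down to 0.00265 for *can* over *Taf5*, and *mia* over *Taf6* is the exception at 0.535.

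Pairs of the tMAC group were read in the same way. *aly* over its general paralogue *mip130* was 0.0308 in *mxcmbn1*, 0.624 in *mxcG43* and 1.07 in wild type, and *tomb* over *mip120* was 0.272, 0.407 and 0.702. *wuc*, a testis-expressed paralogue of *lin-52*, had 0.255 FPKM in *mxcmbn1*, 12.2 FPKM in *mxcG43* and 16.2 FPKM in wild type, a ratio of 0.0157 in *mxcmbn1*. *lin-52* itself was at 1.10 times wild type there. The subunits that tMAC has in common with general complexes were not at or below 0.5 times wild type. *mip40* had 18.2 FPKM in *mxcmbn1*, 18.2 FPKM in *mxcG43* and 29.9 FPKM in wild type, and *Caf1* 44.7, 30.5 and 34.5 FPKM in that order.

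Of 9 other genes with known roles in spermatocyte transcription or meiotic arrest, 5 were at or below 0.1 times wild type in *mxcmbn1*. They were *kmg*, *dany*, *tbrd-1*, *tbrd-2* and *tbrd-3*, matched through the synonyms the table uses. Over all entries the share at or below 0.1 times was 15.3%. *tbrd-2*, a testis bromodomain protein gene, had 0.0307 FPKM in *mxcmbn1*, 4.93 FPKM in *mxcG43* and 10.8 FPKM in wild type. *tbrd-1*, which encodes a protein that works with the testis TAFs, had 0.636 FPKM in *mxcmbn1*, 20.5 FPKM in *mxcG43* and 25.9 FPKM in wild type. *tbrd-3* was listed at 0 in *mxcmbn1*, against 5.42 FPKM in *mxcG43* and 5.40 FPKM in wild type. *kmg*, a zinc finger gene of spermatocytes, was at 0.0621 of wild type in *mxcmbn1* (0.0261 to 0.127) and *dany* at 0.0154 (0.000381 to 0.0898). The ratios of the 4 with a level above 0 lay between 0.00283 and 0.0621, against 0.00284 to 0.0598 for *can*, *sa*, *nht*, *aly* and *comr*. In *mxcmbn1* the smallest whole number of reads was 1 for *dany*, *tbrd-1* and *tbrd-2*, as for *can*. The lower ends of both ranges therefore rest on 1 read. On these smallest numbers the intervals were 7.13e-05 to 0.0159 for *tbrd-2* and 0.000603 to 0.148 for *tbrd-1*. For *dany*, *tbrd-1* and *tbrd-2* the numbers were not checked against mRNA length. In *mxcmbn1* 1 read would stand for 0.636 FPKM at *tbrd-1*, against 0.0307 FPKM at *tbrd-2* and 0.0237 FPKM at *can*. The true reads of *tbrd-1* may thus be a multiple of the smallest, which would narrow its interval. Whether that interval reaches above 0.1 therefore cannot be decided.

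The remaining 4 of the 9 were not at or below 0.5 times. *Nxt1*, an mRNA export factor used in all tissues, was higher in *mxcmbn1*, with 2.54 times the wild-type level, against 0.923 times in *mxcG43*. *thoc5* and *Trf2*, also broadly used, were at 1.16 and 1.57 times wild type. *TfIIA-S-2* had 4.05 FPKM in *mxcmbn1*, 6.72 FPKM in *mxcG43* and 6.52 FPKM in wild type, a ratio of 0.621 (0.299 to 1.28). In *mxcG43* only *tbrd-2* of the 9 was at or below 0.5 times, at 0.454, against 6.80% of all entries. The list's median log2 ratio was -3.55 in *mxcmbn1* and -0.20 in *mxcG43*.

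Genes that depend on these regulators in testis were set beside them. Of those that need tMAC but not the testis TAFs, *bol*, a translational regulator of meiotic entry, had 7.54 FPKM in *mxcmbn1*, 59.6 FPKM in *mxcG43* and 68.0 FPKM in wild type. *twe*, the meiotic Cdc25 phosphatase, had 4.76 FPKM in *mxcmbn1*, 12.7 FPKM in *mxcG43* and 16.7 FPKM in wild type. *CycB*, which dividing cells of every tissue use, was at 0.829 times wild type in *mxcmbn1*. *bol* and *twe* were therefore at 0.111 and 0.286 times wild type in *mxcmbn1*, and at 0.876 and 0.762 times in *mxcG43*.

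Genes that need both sets were lower still in *mxcmbn1*. *fzo*, a mitofusin of spermatids, had 0.149 FPKM in *mxcmbn1*, 17.2 FPKM in *mxcG43* and 17.8 FPKM in wild type. *Mst87F*, a sperm tail protein gene, had 3.19 FPKM in *mxcmbn1*, 156 FPKM in *mxcG43* and 191 FPKM in wild type, a ratio of 0.0167 (0.00883 to 0.0287). In *mxcG43* *Mst87F* was at 0.816 times wild type (0.720 to 0.925) and *fzo* at 0.968 times. *dj*, another sperm tail gene, was at 0.318 times there, with 0.773 FPKM in *mxcmbn1*, 38.3 FPKM in *mxcG43* and 120.5 FPKM in wild type. The median log2 ratio of these 3 genes was -6.16 in *mxcmbn1* and -0.29 in *mxcG43*, while that of *bol*, *twe* and *CycB* in *mxcmbn1* was -1.79. *janB* and *gdl* share an entry with a neighbour and were left out of these medians.

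Markers of other cells were read in the same libraries. Of 8 germ cell genes 3 were at or below 0.5 times wild type and 2 at or above 2 times, against 25.8% and 15.5% of all entries, so these counts are no result about the list. None of the 8 was at 0, and their summed FPKM was 32.5 in *mxcmbn1*, 31.8 in *mxcG43* and 48.3 in wild type. *CycB3* supplied 8.51, 8.62 and 6.92 FPKM of these sums in that order. Earlier work cited by the study found germ cells missing in larvae of some *mxc* alleles. The study's own RNA-seq found genes strongly lower in *mxcmbn1*, most of them peaking in pupal and adult males or adult testes. It read this as matching the earlier work. How much of the levels of the 8 germ cell genes came from germ cells was not tested. *bam*, which acts in dividing spermatogonia, had 6.20 FPKM in *mxcmbn1*, 12.5 FPKM in *mxcG43* and 27.7 FPKM in wild type, and *zpg*, the germline gap junction gene, had 4.25, 0.957 and 0.994 FPKM in that order. *CycB3* and *AGO3* were at 1.23 and 1.22 times wild type in *mxcmbn1*. The other 3 genes counted, named after their values were seen, were *vas* and *bgcn*, at 0.125 and 0.0988 times wild type in *mxcmbn1*, and *nos*, at 5.31 times. Of 4 genes of the somatic gonad, all of which other tissues also use, 1 was at or below 0.5 times and 2 at or above 2 times. The higher genes were *zfh1* and *tj*, the last below 1 FPKM in every library, with an interval that included 1 (ratio 2.40, 0.741 to 10.1). The list had sums of 54.9 FPKM in *mxcmbn1*, 45.8 FPKM in *mxcG43* and 37.5 FPKM in wild type. *zfh1* alone had 34.0, 5.31 and 4.95 FPKM in that order, so the higher sum in *mxcmbn1* came from this gene. *eya* and *Fas3* were lower in *mxcmbn1*, at 0.231 and 0.673 times wild type.

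Of 7 haemocyte genes 6 were at or above 2 times wild type in *mxcmbn1*, against 15.5% of all entries. The sums of the 7 were 1165 FPKM in *mxcmbn1*, 169 FPKM in *mxcG43* and 174 FPKM in wild type. All 6 salivary glue genes were at or below 0.5 times wild type in *mxcmbn1*, against 25.8% of all entries. The sums of the 6 were 2108 FPKM in *mxcmbn1*, 24332 FPKM in *mxcG43* and 29677 FPKM in wild type. The male-specific RNAs *roX1* and *roX2* stood at 195 and 35.4 FPKM in *mxcmbn1*, 201 and 46.7 FPKM in *mxcG43*, and 247 and 37.1 FPKM in wild type, so every library held male RNA. The part of tissue make-up, larval stage and strain in the levels of the 10 genes was not tested.

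**Figure D4:**
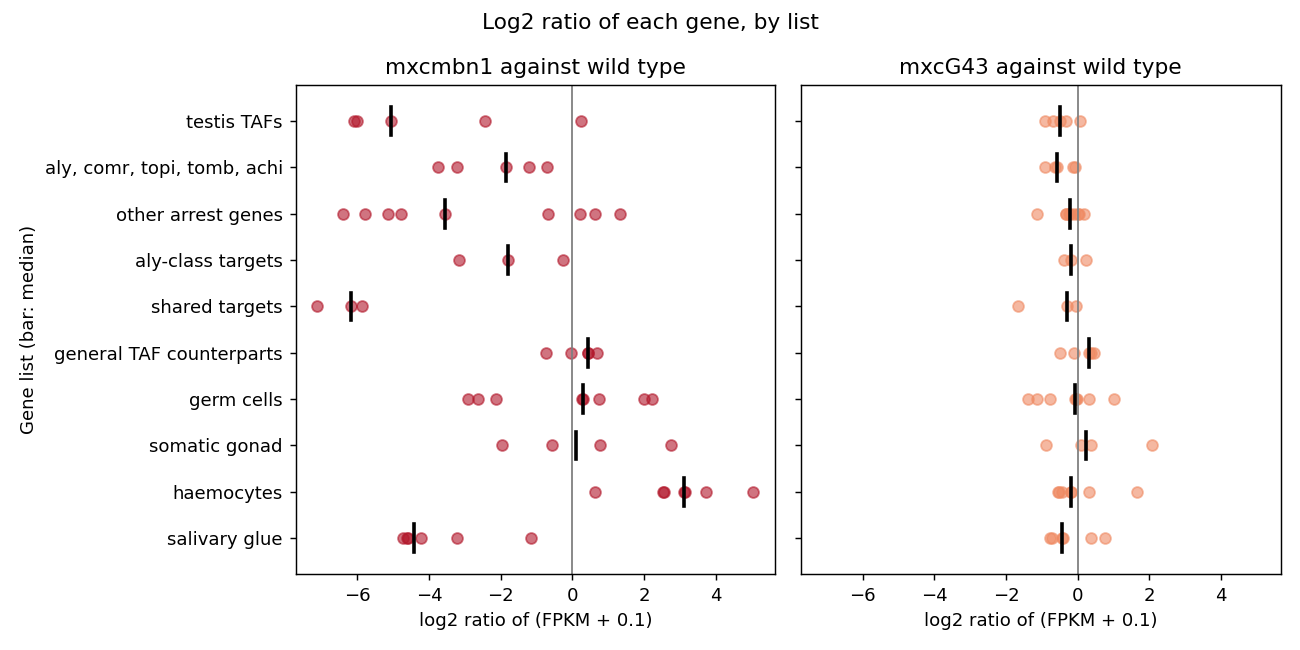
Log2 ratio of FPKM plus 0.1 to wild type for each gene of 10 lists, in *mxcmbn1* and in *mxcG43*, with a bar at the list's median. In *mxcmbn1* the medians lie at -5.07 for the testis TAFs, -1.86 for *aly* to *achi*, 0.43 for the general TAF counterparts and -4.41 for salivary glue genes, and in *mxcG43* those of the testis TAFs and the tMAC group lie at -0.49 and -0.57.

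The 5 entries outside these lists with the pair of ratios nearest to the median of the 10 genes, measured as a distance over 2 log2 ratios from 3 libraries, were *CG10730*, *CG31320*, *CG12057*, *betaNACtes3* and *CG11227*. *betaNACtes3*, whose name marks it as a testis form of a nascent chain associated protein, had 0.596 FPKM in *mxcmbn1*, 3.46 FPKM in *mxcG43* and 4.79 FPKM in wild type. *CG10730* was nearest, with 0.388 FPKM in *mxcmbn1*, 2.27 FPKM in *mxcG43* and 3.30 FPKM in wild type. *CG12057* was far more abundant than any of the 10 genes, with 70.0, 359 and 517 FPKM in that order. With only 3 libraries many entries lie near the same pair of ratios.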

How the data were processed

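RNA from whole male 3rd instar larvae, 1 library for each of 3 genotypes, was sequenced as 51 bp single-end reads with a strand-keeping kit. The authors checked reads with FastQC 0.11.5, aligned them to BDGP5 with TopHat2 2.0.6, ran Cufflinks with default parameters and deposited FPKM values; the read filter and gene annotation were not given in the sources used here. Locus starts are given from 1.

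Plain FPKM ratios were taken, and entries with at least 1 FPKM in the higher library were counted. Counts over the other lists took every gene measured alone, whatever its level. List medians used a pseudocount of 0.1, since a pseudocount understates the change of low genes but keeps zeros. Relative depth was the most common ratio among entries below 2 FPKM. Reads were the smallest whole numbers that matched all 3 libraries within a relative tolerance of 6e-05, and were recovered for 5478 of 12326 entries above 0 in every library. Mapped reads were set from 2839 one-transcript entries, 1757 of them within 2% of the most common value, taking BDGP6 mRNA lengths and fragments of 200 ± 80 bases. Of the 9 genes with reads, 8 fitted that depth within 2% and *rye* lay 25.7% above it. Ratio intervals are exact Clopper-Pearson intervals. BDGP6 served only for names, mRNA lengths and overlaps. The steps were tested on simulated data. Calculations ran in Python 3.11.15 (scipy 1.17.1, numpy 2.4.6 and pandas 2.3.3), and plots were drawn with matplotlib 3.10.9.

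The 10 genes and all lists were chosen with earlier results of these data known. Named genes were the 10, their counterparts, partners and targets, up to 4 markers of highest FPKM per cell type, and the 5 nearest entries; *vas*, *bgcn*, *nos* and *Rbf* were named after their values were seen. Alternatives covered pseudocounts, rescaling, minimum FPKM and read tolerance. No test was made, since there was 1 library per genotype.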

Additional observations from a re-analysis of the deposited data

How the results depend on the processing

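No ratio of the 10 genes, and no median over them, changed direction under the alternatives run. Of the list medians in *mxcmbn1* or *mxcG43* against wild type, that of the somatic gonad in *mxcmbn1* did, from a log2 ratio of 0.11 with a pseudocount of 0.1 to -0.18 with one of 1. Rescaling by the median ratio, by the upper quartile, or removing the minimum FPKM left the counts of the 10 genes within 1.5 times. With a pseudocount of 1, the number at or below 0.1 times was 1 in *mxcmbn1* against wild type and 0 in *mxcmbn1* against *mxcG43*, with median log2 ratios of -1.64 and -1.40. The testis TAF, other arrest gene and shared target medians were then -3.10, -1.98 and -5.52. A pseudocount of 0.1 left 3 genes at or below 0.1 times *mxcG43*, and one of 0.01 put the shared target median at -6.80. A minimum of 5 FPKM kept 6 genes in each *mxcmbn1* comparison. Against wild type, 5 were then at or below 0.5 times, 3 at or below 0.1 times and 5 lower, with a median of -4.09. Against *mxcG43* these were 4, 3 and 5, with a median of -3.87. For *mxcG43* against wild type it kept 5 genes, of which 4 were lower. Leaving out *rye*, which the table holds under a synonym (an alternative chosen after seeing the data, as was the doubling of *nht*), gave 7 and 5 of 9 genes at or below 0.5 and 0.1 times wild type in *mxcmbn1*. Of 108 ratios of the 9 genes with reads under the alternatives, 96 stayed within their counting interval and 12 moved out of it, all with a pseudocount of 1. *achi* has no interval. A tolerance of 2e-05 gave the same reads for 9 genes. No paired analysis was possible because there is 1 library per genotype, and no library could be left out. Depth limits the 5 genes with 1 to 5 reads in *mxcmbn1*, where the size of the difference is known only within its interval.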

Other observations

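Beside the 10 genes, the wider families they come from were read in the same way. Of 9 other general TAF and TBP genes, none was at or below 0.5 times or at or above 2 times wild type in *mxcmbn1*, with ratios between 0.514 and 1.95 and a median log2 ratio of 0.14, and none in *mxcG43*, with a median of -0.16. The shares over all entries in *mxcmbn1* were 25.8% at or below 0.5 times wild type and 15.5% at or above 2 times. In *mxcG43* 808 of 11876 entries (6.80%) were at or below 0.5 times and 763 at or above 2 times. A count of none among 9 in that allele is thus no result about the list. Of 6 dREAM genes measured alone, none was at or below 0.5 times in *mxcmbn1* and 1 was at or above 2 times. It was the retinoblastoma family gene *Rbf*, named after its values were seen, with 11.5 FPKM in *mxcmbn1*, 5.78 FPKM in *mxcG43* and 5.03 FPKM in wild type. The median log2 ratio of the dREAM genes was 0.39 in *mxcmbn1* and 0.09 in *mxcG43*.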
